A study of Mus musculus with 10 samples.

Results

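Potassium channel genes were examined in the calf muscle of mice fed L-carnitine or not. A gene was taken when its array probe set was annotated with exactly 1 gene symbol made of Kcn, 1 letter and a number, which gave 74 genes of the 22180 genes with such a symbol. Of these 74 genes 4 had 2 probe sets, and the probe set with the higher mean was used. The rule leaves out genes with longer symbols, such as the large-conductance channel gene Kcnma1 and the accessory subunit genes Kcnab1 and Kcnip3, which are described apart. It also leaves out channel genes whose probe sets carry more than 1 symbol. These were Kcnk3, with mean log2 signals of 6.775 and 6.274, and Kcnj13, with 5.157, so the family counts below lack them.

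RNA from the gastrocnemius of 10 male NMRI mice, an outbred stock, was hybridised to 1 Affymetrix Mouse Gene 2.0 ST array per mouse. The carnitine group (n = 5) had a basal diet of natural ingredients with 1000 mg L-carnitine added per kg, and the control group (n = 5) had the basal diet alone, with less than 5 mg carnitine per kg. L-carnitine is the carrier with which fatty acids cross into mitochondria. The 60 mice of the study entered it at 3 weeks of age and were killed at 9, 15 or 18 months, and the labels do not say which age each array mouse had, so age could differ between the arrays. Each value comes from a separate mouse, and the whole muscle holds nerve, vessel and connective tissue besides fibres. The mice of the study were housed 5 per cage, and the labels do not give the cage of each array mouse. Mice of 1 diet may therefore have shared a cage, and cage could not be accounted for.

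All values are deposited RMA signals on the log2 scale, where 1 unit is a 2-fold step, and differences are carnitine minus control. The tissue label was borne out by 12 fast-fibre markers, with means from 12.38 to 13.82, against a median of 5.80 over all probe sets. Control replicate 5 stood apart from the other arrays, with an interquartile range of 2.20 against 2.39 to 2.59, and where leaving it out moved the difference of a potassium channel gene described here by over 1.5 times, the value without it is given. The slow-fibre score, the mean of 12 slow-fibre genes, differed widely between mice: it ran from 7.02 to 9.29 in carnitine and from 8.65 to 9.44 in control muscle.

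Potassium channels let potassium leave the cell and so hold the resting potential and end the action potential. In skeletal muscle, inward rectifiers (Kir, the Kcnj genes) set the resting potential and clear potassium from the transverse tubules, voltage-gated channels (Kv) repolarise the fibre, and the ATP-sensitive channel links excitability to the energy state of the fibre. Mutations in the inward rectifier gene Kcnj2 cause a human periodic paralysis.

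The upstream letters of the highest-signal genes are shown because a CANNTG E-box, the core that myogenic factors such as MyoD bind, is the best known muscle motif. The sequences are the 250 bases upstream of the RefSeq start (build GRCm38.p6), for the 5 highest-signal genes with exactly 1 listed start, 5′ to 3′ on the gene's strand, with E-boxes in capitals. Their places are chr2:107290339-107290588 on the plus strand for Kcna4, chr11:111065914-111066163 on the plus strand for Kcnj2, chr3:107458899-107459148 on the minus strand for Kcnc4, chr8:119635681-119635930 on the minus strand for Kcng4 and chr7:45405710-45405959 on the plus strand for Kcna7.
Kcna4: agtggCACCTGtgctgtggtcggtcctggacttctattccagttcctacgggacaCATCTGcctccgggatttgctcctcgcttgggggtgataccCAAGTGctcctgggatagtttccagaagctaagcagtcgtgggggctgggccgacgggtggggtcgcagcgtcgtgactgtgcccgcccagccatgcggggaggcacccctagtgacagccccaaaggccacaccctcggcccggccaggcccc
Kcnj2: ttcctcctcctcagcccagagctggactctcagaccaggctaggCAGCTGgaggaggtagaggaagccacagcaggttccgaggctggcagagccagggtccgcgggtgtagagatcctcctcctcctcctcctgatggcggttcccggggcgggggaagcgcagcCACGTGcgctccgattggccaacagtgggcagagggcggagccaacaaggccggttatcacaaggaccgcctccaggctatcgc
Kcnc4: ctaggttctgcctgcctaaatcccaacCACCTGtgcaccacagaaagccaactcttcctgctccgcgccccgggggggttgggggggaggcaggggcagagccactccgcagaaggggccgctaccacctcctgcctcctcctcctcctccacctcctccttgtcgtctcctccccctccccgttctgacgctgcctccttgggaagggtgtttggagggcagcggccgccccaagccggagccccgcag
Kcng4: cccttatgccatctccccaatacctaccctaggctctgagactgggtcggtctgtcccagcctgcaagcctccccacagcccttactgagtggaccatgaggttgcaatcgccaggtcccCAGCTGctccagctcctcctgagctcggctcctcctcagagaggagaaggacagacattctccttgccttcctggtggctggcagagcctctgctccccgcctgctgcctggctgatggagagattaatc
Kcna7: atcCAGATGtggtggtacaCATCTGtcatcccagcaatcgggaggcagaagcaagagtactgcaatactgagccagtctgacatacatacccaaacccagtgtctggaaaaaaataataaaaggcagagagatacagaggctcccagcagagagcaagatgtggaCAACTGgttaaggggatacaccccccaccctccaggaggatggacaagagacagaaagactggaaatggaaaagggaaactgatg

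The stretches differ in base make-up: the CpG dinucleotide occurs 14 times upstream of Kcna4 and of Kcnj2, 12 times upstream of Kcnc4, 4 times upstream of Kcng4 and 1 time upstream of Kcna7. The E-box count was 3 for Kcna4, 2 for Kcnj2, 1 for Kcnc4, 1 for Kcng4 and 3 for Kcna7. Of the 74 genes 55 had at least 1 listed promoter, 71 promoters in all, and 48 of these 71 (67.6%) held CANNTG, close to the 66.2% of 32851 mouse promoters of the same length. The version CAGCTG, which is itself a CANNTG, was in 18 of 71 (25.4%) against 13.0% of all promoters. Both motifs read the same on either strand. Among genes with a mean signal above 7, 4 of 12 promoters (10 genes) held CAGCTG, and among the other potassium channel genes 14 of 59 (45 genes) did. At the first listed start of the genes above 7 it was present for Kcnj2, Kcng4 and Kcnn1. These counts and shares are per listed start, so a gene with several starts counts several times, and Kcnk2, Kcnj16 and Kcnc2 have 4 each. The 32851 promoters likewise belong to 27025 genes. A match is only a match of letters.

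By mean signal over the 10 arrays, 43 of the 74 genes (58.1%) lay above the median probe set of 5.80, as did 58.3% of all genes. Only 11 (14.9%) had a mean above 7, a round value chosen after the signals were seen, against 32.2% of all genes. The order of signals between genes also reflects how well each probe set binds, so it describes the arrays and not transcript numbers.

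**Figure D1:**
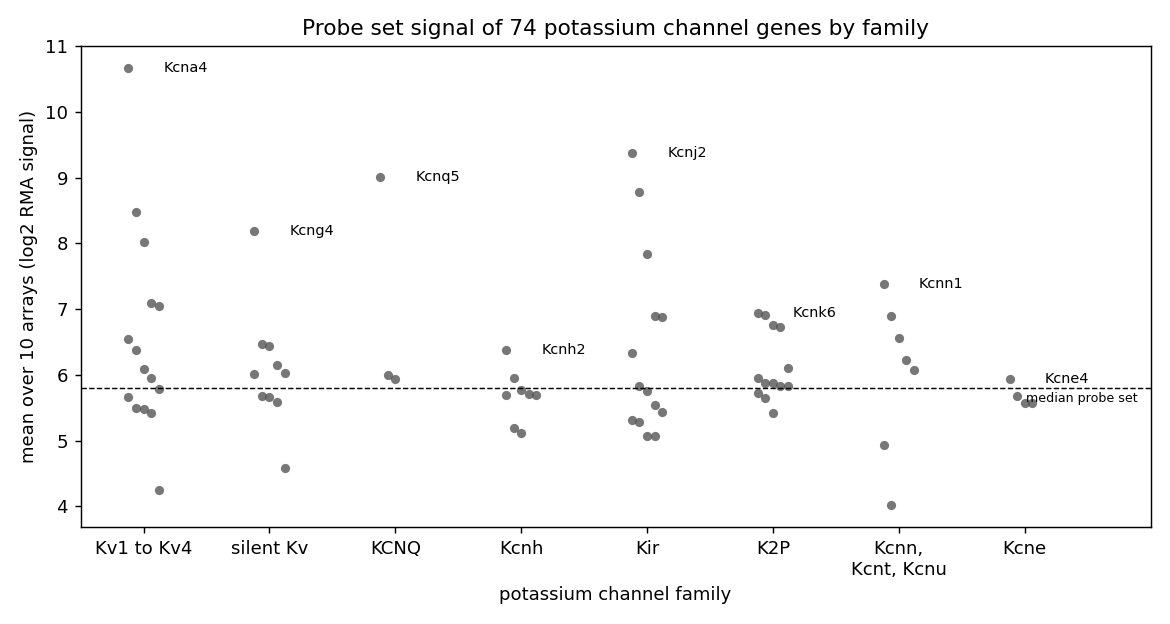
Mean log2 RMA signal over 10 arrays (vertical axis) of the 74 potassium channel genes, 1 point per gene, in 8 families (horizontal axis). The dashed line is the median probe set at 5.80, the top gene of each family is named, and Kcna4 is highest at 10.67.

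Among the inward rectifiers, 14 genes were measured and 7 lay above the median probe set. Kcnj2, the main inward rectifier of the resting fibre, averaged 9.38 over the 10 arrays, and Kcnj11, the pore of the muscle ATP-sensitive channel, averaged 8.78. Kcnj8, the pore of the vascular ATP-sensitive channel and a gene of pericytes, averaged 7.83, and Kcnj12, a close relative of Kcnj2, averaged 6.89. The neighbour of Kcnj2 on chromosome 11, Kcnj16, averaged 5.32, so the adjacent genes had signals on either side of the median. The sulfonylurea receptor genes, which encode the regulatory subunits of the ATP-sensitive channels, lie next to their pore genes. Abcc9 averaged 11.30 beside Kcnj8 on chromosome 6, and Abcc8 averaged 6.37 beside Kcnj11 on chromosome 7.

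Of 15 pore-forming voltage-gated genes of the Kcna to Kcnd groups, 9 lay above the median probe set. Kcna4, which carries a fast-inactivating current, had the highest signal of all 74 genes at 10.67. That rank rests on 1 probe set, since the other Kcna4 probe set averaged 4.55. Kcnc4, another fast-inactivating channel found in muscle, averaged 8.48, Kcna7 averaged 8.02, Kcnc1, best known from fast-spiking neurons, 7.09, and Kcna6 7.04, with 5.97 for the second probe set of Kcna6. Kcna6 lies next to Kcna1, at 5.67, and Kcna5 on the other side of Kcna1 averaged 6.55.

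Silent subunits form no channel alone and change the currents of partners. Kcng4 led these 10 genes at 8.19, and the next, Kcns3, averaged 6.47. In the KCNQ group Kcnq5, a slow non-inactivating channel of nerve and muscle, averaged 9.01 (second probe set 5.67), against 5.99 for Kcnq1 and 5.94 for Kcnq3. Among 7 genes of channels gated by calcium, sodium or pH (Kcnn, Kcnt, Kcnu), the small-conductance channel genes Kcnn1 at 7.38, Kcnn3 at 6.90 and Kcnn2 at 6.56 were the highest.

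The tandem-pore background channels (K2P) were a flat family: 13 genes ran from 5.41 for Kcnk9 to 6.93 for Kcnk6, and 10 lay above the median probe set. Kcnk1 stood just below Kcnk6 at 6.91. Of 8 Kcnh genes only Kcnh2, the gene of a repolarising current of the heart, and Kcnh3 exceeded the median, at 6.38 and 5.96. Of 4 accessory Kcne genes, Kcne4 alone did so, at 5.94. The 31 genes at or below the median probe set include the kidney channel gene Kcnj1 (5.07), the neuronal Kcnc2 (4.25) and, lowest of all, Kcnu1 (4.02), a channel of sperm.

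Carnitine feeding was then compared with control by limma over all 22180 genes. Not 1 of the 74 potassium channel genes reached the adjusted threshold of 0.05 (lowest adjusted p 0.71, limma), and of all 22180 genes 0 did (0%). At an unadjusted p below 0.05 there were 2 of 74 genes (2.7%), where 1546 of all genes (6.97%) lay below that p. Of the 2 genes, 1 was higher in carnitine, as were 3.14% of all genes at that p, and 1 was lower, as were 3.83%. No potassium channel gene had groups that did not overlap, which held for 247 of all genes (1.11%). Both shares moved with single arrays. Leaving out control replicate 1 gave 7 of 74 genes (9.46%) beside 8.15% of all genes, and leaving out control replicate 2 gave 7 of 74 beside 11.5%. The count was 1 with carnitine replicate 2 or 3 left out and 0 with carnitine replicate 1 left out, beside 5.03%, 5.22% and 5.08% of all genes. The share was below that of all genes in the full set and above it without control replicate 1. Differences ran from -0.29 for Kcnh5 to 0.32 for Kcnc1, with a median of -0.03 beside -0.01 over all genes. In these bulk samples fewer cells of a type and less RNA per cell cannot be told apart.

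The 2 genes were Kcnh5 and Kcnt2. Kcnh5, a voltage-gated channel gene known from brain, read 4.75, 5.14, 4.92, 4.81 and 5.21 in carnitine replicates 1 to 5, against 5.03, 5.36, 5.22, 5.28 and 5.41 in control replicates 1 to 5. All 5 carnitine mice lay below the control median, and the groups overlapped through control replicate 1. The difference was -0.29 (SE 0.11, 95% interval -0.53 to -0.05, adjusted p = 0.71 in limma).

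Kcnt2, a sodium-activated channel gene, read 5.21, 5.16, 5.11, 4.74 and 5.14 in carnitine replicates 1 to 5, against 4.61, 5.09, 4.82, 4.97 and 4.49 in control replicates 1 to 5. Apart from carnitine replicate 4, each carnitine mouse lay above every control. The difference was 0.28 (SE 0.13, 95% interval 0.002 to 0.55, adjusted p = 0.71 in limma). Both genes lay below the median probe set, where the signal is weak. With the slow-fibre score as a covariate the difference was -0.45 for Kcnh5 (adjusted p = 0.79 in limma) and 0.18 for Kcnt2 (adjusted p = 0.85).

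**Figure D2:**
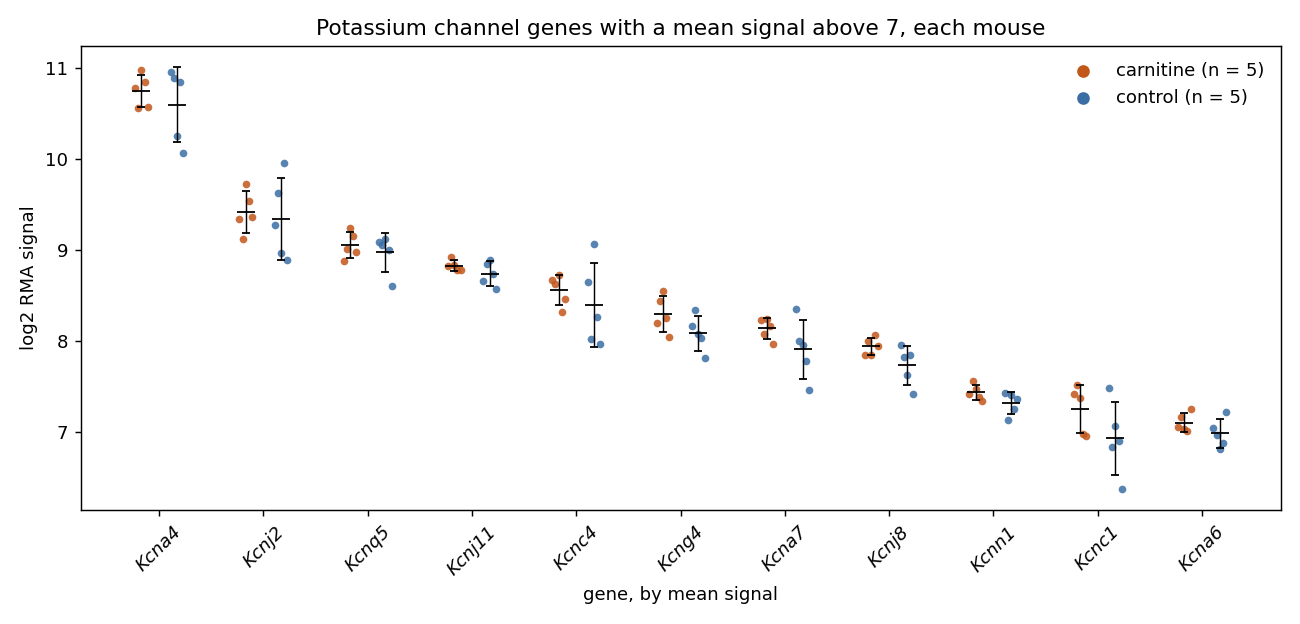
Log2 RMA signal (vertical axis) of the 11 potassium channel genes with a mean above 7 (horizontal axis), 1 point per mouse, carnitine left and control right within each gene, with bars for mean and SD (n = 5 each). The groups overlap for all 11 genes, and control replicate 5 is the lowest control for 9 of them.

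The 11 genes with the highest signals, which include the main channels known from muscle fibres, overlapped between the diets. Kcnj2 read 9.34, 9.12, 9.72, 9.54 and 9.36 in carnitine replicates 1 to 5, against 9.27, 9.62, 8.97, 9.95 and 8.89 in control replicates 1 to 5. The control mice held both the highest and the lowest values of this gene. Its mean was 9.42 ± 0.23 in carnitine and 9.34 ± 0.45 in control muscle (SD, n = 5 each), a difference of 0.08 (SE 0.18, adjusted p = 0.91 in limma). It ran from -0.04 without control replicate 5 to 0.23 without control replicate 4.

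Kcnj11 varied little: it read 8.82, 8.92, 8.83, 8.78 and 8.78 in carnitine replicates 1 to 5, against 8.66, 8.85, 8.89, 8.73 and 8.57 in control replicates 1 to 5. The carnitine mice stayed within the control range but for carnitine replicate 2, which was just above it. The mean was 8.83 ± 0.06 in carnitine and 8.74 ± 0.13 in control muscle (SD, n = 5 each), a difference of 0.09 whose 95% interval ran from -0.09 to 0.26, and 0.04 without control replicate 5. Its sulfonylurea receptor partners differed by -0.03 (Abcc8) and -0.02 (Abcc9).

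Kcnj8 read 7.84, 8.0, 7.85, 8.06 and 7.94 in carnitine replicates 1 to 5, against 7.95, 7.82, 7.62, 7.84 and 7.42 in control replicates 1 to 5. Control replicate 5 was the lowest mouse, and the difference was 0.21 (SE 0.10, adjusted p = 0.72 in limma), or 0.13 without that array. The mean of 10 pericyte and smooth muscle markers lay between 8.48 and 8.63 in carnitine and between 8.39 and 8.64 in control muscle, with 8 of 10 positive and 0 past the adjusted threshold. Their part in the Kcnj8 value was not tested.

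Among the voltage-gated channels, Kcna4 read 10.78, 10.56, 10.98, 10.84 and 10.57 in carnitine replicates 1 to 5, against 10.95, 10.89, 10.25, 10.84 and 10.06 in control replicates 1 to 5. Control replicates 3 and 5 were the low mice, and the other controls matched the carnitine range. The mean was 10.75 ± 0.18 in carnitine and 10.60 ± 0.41 in control muscle (SD, n = 5 each), a difference of 0.15 (SE 0.16), which was 0.06 without control replicate 3 and 0.01 without control replicate 5. Kcna4's second probe set differed by 0.07.

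Kcnc1 had the largest positive difference, 0.32 (SE 0.18, adjusted p = 0.72 in limma). It read 7.42, 7.52, 7.37, 6.98 and 6.95 in carnitine replicates 1 to 5, against 7.48, 6.83, 7.06, 6.90 and 6.37 in control replicates 1 to 5. All 5 carnitine mice lay above the control median, while control replicate 1 was higher than 4 of them. Without control replicate 5 the difference was 0.18.

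Kcnc4 read 8.67, 8.62, 8.72, 8.32 and 8.46 in carnitine replicates 1 to 5, against 8.65, 8.02, 9.07, 8.26 and 7.97 in control replicates 1 to 5. The controls spanned a wider range on both sides, and the difference was 0.16 (SE 0.18). It was 0.06 without control replicate 5, 0.07 without control replicate 2 and 0.33 without control replicate 3. Kcna7, a gene expressed mainly in muscle, read 8.23, 8.08, 8.24, 8.16 and 7.97 in carnitine replicates 1 to 5, against 8.35, 8.0, 7.95, 7.78 and 7.46 in control replicates 1 to 5. The highest and the lowest value of Kcna7 were both in controls, and the difference was 0.23 (SE 0.13, adjusted p = 0.72 in limma), or 0.12 without control replicate 5. Kcng4 differed by 0.21 (SE 0.12), with 8.04 to 8.55 in carnitine and 7.81 to 8.34 in control muscle.

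The other high-signal genes were Kcnq5, which differed by 0.08 (SE 0.11), Kcnn1, by 0.12 (SE 0.09), and Kcna6, by 0.12 (SE 0.10). Without control replicate 5 they differed by -0.01 (Kcnq5), 0.13 (Kcnn1) and 0.18 (Kcna6). For Kcna6 all 5 carnitine mice lay above the control median of 6.97, but control replicate 5 at 7.22 exceeded 4 of them. The second probe sets went the other way, at -0.19 for Kcnq5 and -0.08 for Kcna6.

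All 11 genes above a signal of 7 had a positive difference, with a median of 0.15, while 22 of 63 genes at or below 7 did, with a median of -0.05. The whole array showed the same split: 78.5% of the 7146 genes above 7 were higher in carnitine on average (median 0.09), and 66.7% of the 15034 genes at or below 7 were lower (median -0.05). The count of 11 was 8 after cyclic loess, a rescaling that removes differences which depend on signal, when 52.2% of all genes above 7 were positive and the differences of Kcnj2, Kcnq5 and Kcnj11 were below 0. Without control replicate 5, the array with the narrow range, it was 9 of 11, with 66.0% of all genes above 7. Over the 74 genes 33 were positive in the deposited values, or 44.6% against 47.5% of all genes, 42 after median centring and 39 after cyclic loess. That all genes above 7 were positive depends on where the cut was set. Next below it came Kcnk6 (signal 6.93, difference -0.17), Kcnk1 (6.91, -0.10), Kcnn3 (6.90, -0.17) and Kcnj12 (6.89, 0.01).

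**Figure D3:**
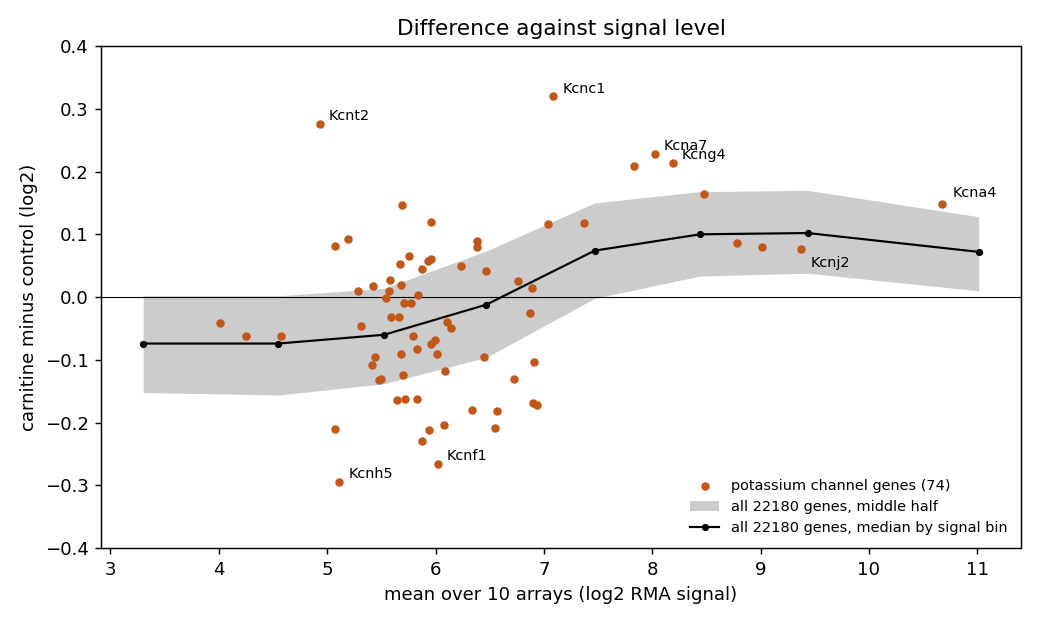
Difference carnitine minus control (log2, vertical axis) against mean log2 RMA signal (horizontal axis) for the 74 potassium channel genes (points) over the median and middle-half band of all 22180 genes in signal bins. The median of all genes is below 0 in the bins up to 7 and above 0 beyond, and the 11 potassium channel genes above 7 are all above 0, which 8 of them are after cyclic loess. Next below 7, Kcnk6, Kcnk1 and Kcnn3 are below 0 and Kcnj12 is just above 0.

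On the lower side the largest differences were in genes near or below the median probe set. Kcnf1, a silent subunit gene, differed by -0.27 (SE 0.18, adjusted p = 0.73 in limma). It read 5.96, 5.97, 5.50, 5.98 and 6.04 in carnitine replicates 1 to 5, against 5.55, 6.16, 6.69, 6.01 and 6.37 in control replicates 1 to 5, with control replicate 1 down at the level of the lowest carnitine mouse. The difference was -0.13 without control replicate 3 and -0.42 without control replicate 1. Kcnk16, known from the pancreas, differed by -0.23 (SE 0.11, adjusted p = 0.71), with 5.62 to 5.88 in carnitine and 5.73 to 6.22 in control muscle. Kcne4, whose protein inhibits KCNQ and Kv channels, differed by -0.21 (SE 0.11, adjusted p = 0.72), with 5.68 to 6.01 in carnitine and 5.74 to 6.25 in control muscle. All 5 carnitine mice lay below the control median for each of these genes. Kcnj1 differed by -0.21 (SE 0.13), and its control replicate 5 at 5.67 was far above the 4.97 to 5.11 of the other controls. Without that array the difference of Kcnj1 was -0.09.

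Kcnn3, a small-conductance channel gene known to return in denervated muscle, had the widest spread of the 74 genes. It read 6.62, 7.00, 7.07, 6.92 and 6.45 in carnitine replicates 1 to 5, against 7.27, 7.05, 6.45, 7.66 and 6.47 in control replicates 1 to 5. The controls alone spanned the whole range, and the difference of -0.17 (SE 0.21) was 0.002 without control replicate 4, the highest mouse, and -0.30 without control replicate 5. The within-group SD was 0.41, wider than in 98.2% of all genes.

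The K2P genes Kcnk6 and Kcnk1 differed by -0.17 (SE 0.11) and -0.10 (SE 0.12). Kcnk1 was -0.01 without control replicate 5, and Kcnk6 was -0.09 without carnitine replicate 5. Of the 13 K2P genes, all below a signal of 7, 9 had a negative difference, where 66.7% of all genes at or below 7 did. After median centring or cyclic loess 8 of 13 were negative. The share of all genes at or below 7 that were positive was then 49.2% and 49.9%, against 32.7% in the deposited values. Without control replicate 5 again 9 K2P genes were negative, and 44.0% of all genes at or below 7 were positive. Among the silent Kv genes 8 of 10 were negative, but 5 of 10 after median centring, after cyclic loess or without control replicate 5. The count was 6 of 15 for the Kcna to Kcnd genes and 7 of 14 for the Kir genes. These were 6 and 4 after median centring, 5 and 8 after cyclic loess, and 4 and 6 without control replicate 5. None of these families held a gene past an unadjusted p of 0.05. Kcnj12 differed by 0.01 (SE 0.09) and Kcnh2 by 0.08 (SE 0.09).

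The 95% intervals show what these arrays could tell apart. Over all 74 genes the intervals of the difference lay between -0.64 and 0.70, which is 0.640-fold to 1.62-fold, carnitine over control. The median half-width was 0.24, as over all genes. A p that misses the threshold does not show that the diets act alike.

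**Figure D4:**
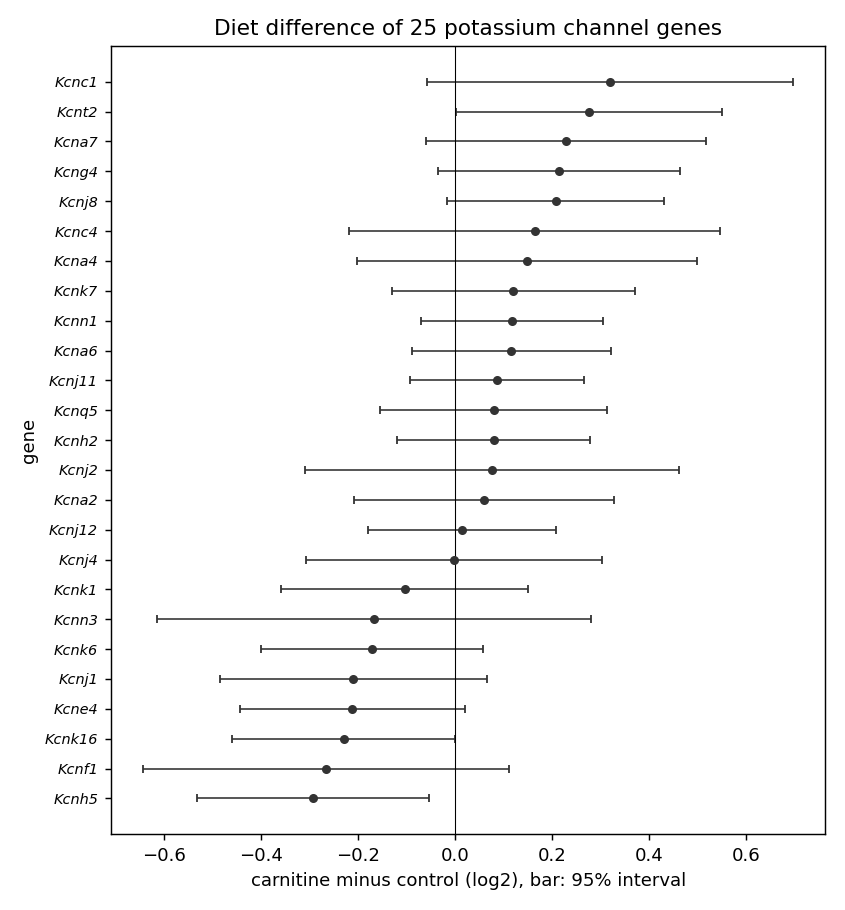
Difference carnitine minus control (log2, horizontal axis) with unadjusted 95% intervals from limma for 25 named potassium channel genes (vertical axis, n = 5 each). Kcnc1 is highest at 0.32 and Kcnh5 lowest at -0.29, and only the intervals of Kcnt2 and Kcnh5 leave out 0.

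The spread between mice of 1 diet differed among the genes. Within-group SDs ran from 0.07 for Kcnk5 to 0.41 for Kcnn3, with a median of 0.18, as over all genes. Kcnj2 (0.35), Kcnc4 (0.35), Kcnc1 (0.34), Kcnf1 (0.34) and Kcna4 (0.32) each varied more than at least 93.9% of all genes, while Kcnj11 (0.10) stood at the 9.1 percentile.

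Because slow-fibre content differed between mice, each gene was also fitted on the slow-fibre score within diet. Of the 74 genes 0 reached the adjusted threshold (lowest adjusted p 0.78, limma), against 7 of 22168 genes (0.0316%), and 1 of 74 (1.35%) had an unadjusted p below 0.05, against 5.77% of all genes. That gene was Kcnh5, with a slope of -0.19 per unit of score (SE 0.08, adjusted p = 0.78 in limma), which was -0.10 without the 2 mice of lowest score, carnitine replicates 5 and 2. With control replicate 2 or 3 left out the genes at that p were Kcna4 and Kcnh5 (2.70%, beside 5.47% and 5.98% of all genes). With control replicate 5 left out they were Kcnh5 and Kcnj4 (2.70%, beside 8.97%). Kcnh5 was not among the genes at that p with carnitine replicate 2, 4 or 5 left out. Without carnitine replicate 2 they were Kcnj4 and Kcnn3 (2.70%, beside 5.76% of all genes). Without carnitine replicate 4 they were Kcna4, Kcnf1 and Kcnk7 (4.05%, beside 5.12%), and without carnitine replicate 5 there were 0 (beside 3.16%). The largest slopes were 0.27 for Kcnn3 (SE 0.15), 0.23 for Kcna4 (SE 0.11, adjusted p = 0.89 in limma) and 0.21 for Kcnj2 (SE 0.13) on the positive side. Kcnj4 had 0.20 (SE 0.10) and Kcnq5 0.13 (SE 0.08). On the negative side Kcnf1 had -0.20, Kcnk7 -0.16, Kcna2 -0.14 and Kcna6 -0.11. The slope of Kcnj11 was -0.01 (SE 0.07).

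Genes that work with these channels were read from a list of 45 genes, of which 38 were measured: accessory subunits, the sodium-potassium pump, the other channels of the action potential and cation-chloride cotransporters. For diet 3 of 38 had an unadjusted p below 0.05 (6.97% of all genes) and 0 passed the adjusted threshold in limma. These were Fxyd5 at 0.33 (SE 0.13) and Fxyd1 at 0.19 (SE 0.09), both regulators of the pump, and the accessory subunit gene Kcnab3 at -0.23 (SE 0.11). Without control replicate 5 Fxyd1 was 0.12. The muscle chloride channel gene Clcn1, which dampens fibre excitability, averaged 10.04 ± 0.20 in carnitine and 9.80 ± 0.21 in control muscle (SD, n = 5 each), a difference of 0.24 (SE 0.12, adjusted p = 0.71 in limma). Control replicate 5 had the lowest Clcn1 value, 9.47, against 9.73 to 10.03 in the other controls. The calcium release channel gene Ryr1 differed by 0.02 (SE 0.08).

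On the slow-fibre score 8 of these 38 genes had an unadjusted p below 0.05, where 5.77% of all genes did, and none passed the adjusted threshold in limma. Kcnab1, an accessory subunit that makes Kv channels inactivate, read 6.97, 8.02, 7.40, 6.77 and 8.76 in carnitine replicates 1 to 5, and 6.75, 7.19, 7.96, 6.22 and 8.06 in control replicates 1 to 5. Its slope was -0.83 (SE 0.21, adjusted p = 0.34 in limma), and the mouse with the lowest slow-fibre score, carnitine replicate 5, had the highest Kcnab1 signal.

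Lrrc52, an accessory subunit of large-conductance channels, read 7.52, 7.39, 8.65, 8.59 and 6.94 in carnitine replicates 1 to 5, and 7.61, 7.67, 7.50, 8.73 and 8.21 in control replicates 1 to 5. It went the other way, with a slope of 0.70 (SE 0.16, adjusted p = 0.33 in limma), as did the channel gene Kcnma1, at 0.23 (SE 0.08, adjusted p = 0.61). The second Kcnma1 probe set averaged 4.93 against 10.20, and with the mean of both the slope was 0.08. The pump regulator Fxyd6 had a slope of 0.58 (SE 0.13, adjusted p = 0.27 in limma). The other genes below the unadjusted p of 0.05 were the pump subunit gene Atp1b1 (0.28) and Atp1b4 (0.36), which was listed with the pump genes. The cotransporter genes Slc12a7 (0.20) and Slc12a2 (-0.17) were also among them. Without the 2 mice of lowest score the slopes were -0.69 for Kcnab1, 0.68 for Lrrc52, 0.32 for Kcnma1, 0.71 for Fxyd6 and -0.05 for Slc12a2, each with an adjusted p of 1 in limma.

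**Figure D5:**
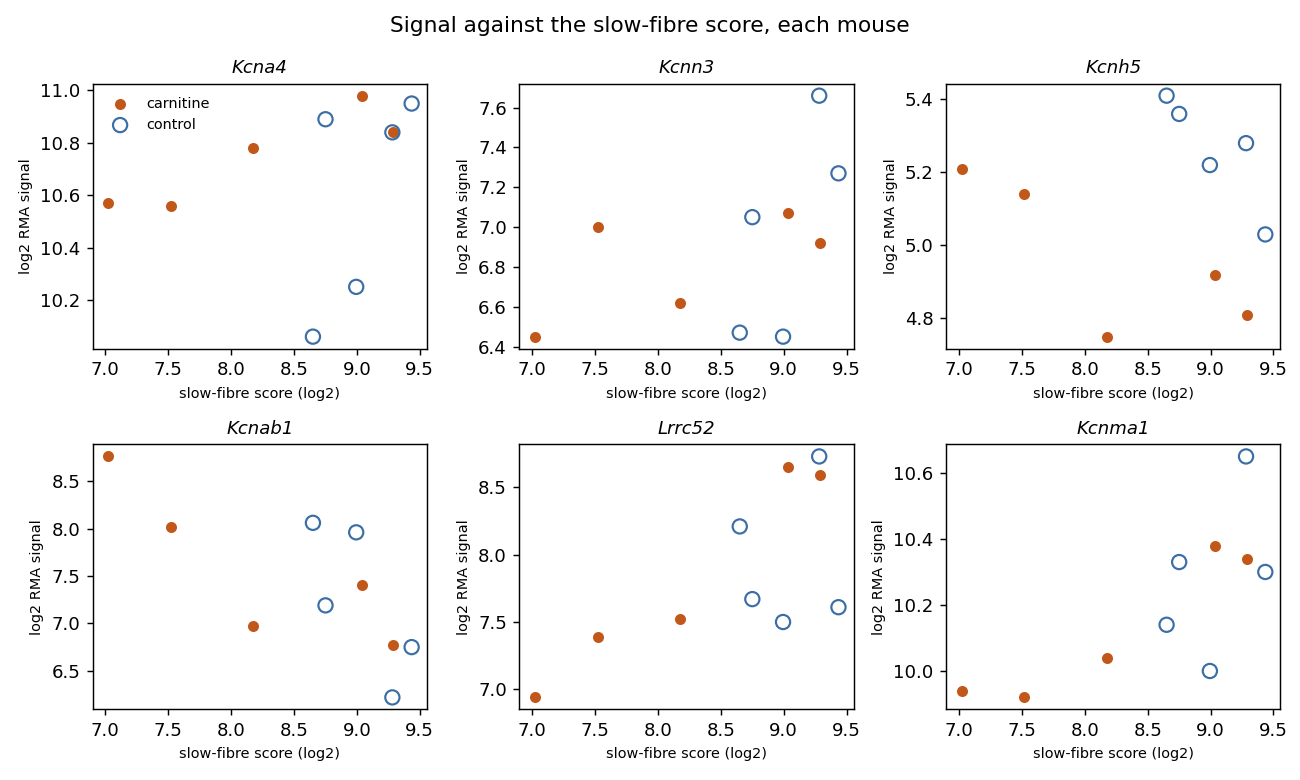
Log2 RMA signal (vertical axes) against the slow-fibre score (log2, horizontal axes), 1 point per mouse, filled for carnitine and open for control, for Kcna4, Kcnn3, Kcnh5, Kcnab1, Lrrc52 and Kcnma1. The slopes within diet are -0.83 for Kcnab1 and 0.70 for Lrrc52, and neither passed the adjusted threshold.

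Markers of other cells were compared on the same arrays, and none of their genes passed the adjusted threshold. The Schwann cell and nerve list (8 of 11 measured) averaged 5.77 ± 0.17 in carnitine and 5.76 ± 0.11 in control muscle (SD, n = 5 each), the endothelial list 8.26 ± 0.18 in carnitine and 8.24 ± 0.31 in control, and the T cell list 5.21 ± 0.11 in carnitine and 5.37 ± 0.24 in control. The fibroblast list stood at 8.11 ± 0.23 in carnitine and 7.85 ± 0.31 in control muscle, with 6 of 6 genes positive. The adipocyte list stood at 6.71 ± 0.16 in carnitine and 6.87 ± 0.28 in control, the macrophage list at 6.33 ± 0.15 in carnitine and 6.40 ± 0.26 in control, and the fast-fibre list at 13.13 ± 0.04 in carnitine and 13.09 ± 0.02 in control muscle. Of 12 slow-fibre genes 11 had a negative difference, and their score averaged 8.21 ± 0.97 in carnitine and 9.02 ± 0.34 in control muscle.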

How the data were processed

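Expression in 10 muscles was measured on arrays, 1 per mouse. The deposited log2 values were made with RMA and Affymetrix Expression Console, per the submitters' processing notes, with no version or genome build in the labels. RMA usually evens out the arrays' probe signals and draws dim probe sets towards a floor, which can understate differences of weak genes and hides total RNA per sample. The deposited array medians still ran from 5.72 to 5.96.

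Genes were named from the platform's annotation: 23521 of 34390 probe sets have 1 symbol, 1814 several and 9055 are not listed. The probe set with the highest mean was kept per gene, and no filter on dim signal was used. The diets were set against each other with limma 3.58.1, run in R 4.3.3 (lmFit, eBayes with a mean-variance trend, two-sided, Benjamini-Hochberg adjustment over 22180 genes, threshold 0.05). A further fit added the slow-fibre score to diet. The number of arrays limits the precision. No arrays were identical, and correlations between arrays across genes ran from 0.973 to 0.994.

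The rule for named genes takes the 15 highest signals, the genes with an unadjusted p below 0.05, the 5 largest differences per direction, the 5 smallest p of the score per direction and the top gene of each family, 25 genes in all. Other potassium channel genes, and genes named from the list of 45, were picked with their values in view. The members and lists were chosen with earlier results of these data known. Promoter sequences come from RefSeq (GRCm38.p6). Alternatives changed the block, filter, variance model, weights, scaling, probe set rule and arrays. Robust eBayes and the counts of positive genes above a signal of 7 under other scalings and with arrays left out, and the family counts of negative genes under other scalings, were chosen after seeing the data.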

Additional observations from a re-analysis of the deposited data

Results flagged for a closer look

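In 50 groups of 5 mice, the highest or lowest mouse of a named gene stood far from the rest in 5 groups, by the size of its gap relative to the range of the group (Dixon's criterion). Chance gives about 1 such group in 20 when groups are independent and not selected. These groups share the same mice, and some of the genes were named for their differences, so that rate cannot be applied here. Control replicate 5, the array with the narrow range, gave 3 of them: Kcnq5 at 8.60 against 9.00 to 9.12 in the other controls, Kcnk7 at 6.23 against 5.77 to 5.88, and Kcnj1 at 5.67 against 4.97 to 5.11. Carnitine replicate 3 had 5.50 for Kcnf1 against 5.96 to 6.04 in the other carnitine mice. Carnitine replicate 4 had 4.74 for Kcnt2 against 5.11 to 5.21, and without it the difference of Kcnt2 was 0.36 (adjusted p = 0.72 in limma).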

How the results depend on the processing

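No potassium channel gene passed an adjusted p of 0.05 in limma under any alternative run. Over all genes the count past that threshold was 0 under the other settings run for it and ranged from 0 to 1 when arrays were left out (1 without control replicate 2), while 1115 to 2560 genes had an unadjusted p below 0.05 with arrays left out. The number of potassium channel genes below an unadjusted p of 0.05, 2 in the deposited values (Kcnh5 and Kcnt2), was 4 with a replicate block (Kcnc1, Kcng4, Kcnh5 and Kcnk16, beside 8.12% of all genes). It was 1 among genes above the median probe set (Kcnk16, 2.33%, beside 6.54% of all genes tested), where Kcnh5 and Kcnt2 are not tested. It was 4 with the slow-fibre score as covariate (Kcna7, Kcnf1, Kcng4 and Kcnh5, beside 6.31%). With arrays left out it ranged from 0 to 7, beside 5.03% to 11.5% of all genes. Kcnh5 was not among the genes after cyclic loess, nor Kcnt2 with array weights. The number that varied with the slow-fibre score at that p was 1 in the deposited values. It was 0 among genes above the median probe set (beside 8.25% of all genes tested) and 8 with array weights (10.8%, beside 12.7%). It was 2 after median centring (beside 4.25%), 3 after cyclic loess (beside 7.94%) and 3 without the 2 arrays of extreme score (4.05%, beside 2.98%). With arrays left out it ranged from 0 to 3, beside 3.16% to 8.97% of all genes. With array weights the slopes of Lrrc52 (0.78, adjusted p = 0.013 in limma) and Fxyd6 (0.55, adjusted p = 0.018) passed the adjusted threshold. That setting raised calls across the array: 12.7% of all genes had an unadjusted p below 0.05 for the score, against 5.77% in the main fit.

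Signs turned in 13 of 247 gene differences under other settings. After cyclic loess Kcnj2 was -0.030, Kcnq5 -0.024, Kcnj11 -0.016, Kcnj12 -0.0078 and Kcnj4 0.066. With the score as covariate Kcnn3 was 0.050, Kcnj12 -0.017, Kcnk7 -0.010, Kcna2 -0.051 and Kcnj4 0.16. Kcnj4 was 0.043 with array weights and 0.048 after median centring, and Kcnq5 was -0.054 with the mean of its probe sets. The slope of Kcna2 was 0.010 without the 2 arrays of extreme score. With an array left out, differences ranged from -0.014 to 0.146 for Kcna2, -0.032 to 0.053 for Kcnj12, -0.0365 to 0.2285 for Kcnj2, -0.0895 to 0.0805 for Kcnj4, -0.30 to 0.002 for Kcnn3 and -0.013 to 0.123 for Kcnq5. The cause of these changes was not tested.

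The labels tie the replicate numbers to no litter, cage or day, so the numbers are not taken to pair the mice. The same-numbered mice of the groups deviated together in 3 of 5 pairs (correlations over 0.1, from -0.13 to 0.24 over all 5 pairs). Mice of different numbers were not compared in this way, so these correlations cannot decide whether the mice are paired. The signal of 31 of 74 genes was at or below the median probe set, where signal over background limits what can be read. The median half-width of the 95% intervals was 0.25 for genes above a signal of 7 and 0.24 for the others.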
